A study of Homo sapiens with 12 samples.

Results

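The subject here is the difference between the 2 non-silencing control lines, NS1 and NS2, of MCF10AT. This human cell line derives from mammary epithelium and was transformed with an activated HRAS. All lines of the study carry that transgene, received an shRNA by lentivirus and went through puromycin selection. By the labels, selection was with 1 ug/ml puromycin for 3 days in every line. The medium of every line held 20 ng/ml EGF, 5% horse serum and 100 ug/ml hydrocortisone. NS1 and NS2 both express a non-silencing hairpin that the labels do not tell apart further, and EP300 KD1 and EP300 KD2 express different hairpins against EP300, the gene of the acetyltransferase p300. The members are the 6 control libraries, 3 of NS1 and 3 of NS2, of 12 in all, and the 13424 of 29094 deposited gene rows that passed a filter on low counts. The labels say neither how the control lines differ nor whether the 3 libraries of a line are from different cultures. The p-values therefore rest on a spread among libraries that could be technical alone. Nothing in the labels says that a line was made more than once, so a difference between NS1 and NS2 is one between these cell lines and cannot be told apart from one between hairpins.

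A non-silencing control carries an shRNA with no intended target, so that it shares transduction, selection and hairpin processing with the knockdown lines. Such hairpins are cut by DICER1 and loaded into Argonaute proteins like microRNAs, short RNAs that pair with messenger RNAs through a seed near their 5′ end. MCF10A-derived cells are grown with EGF, insulin and hydrocortisone and carry markers of the basal mammary epithelium, the layer that contacts the basement membrane.

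Total counts ran from 32674926 to 45606950 in NS1 and from 32112613 to 33951970 in NS2, and replicates differed by more than sampling noise in every pair. The first principal component of the 6 control libraries held 72.39% of their variance and set NS1 apart from NS2. Mammary epithelial markers were present, with KRT5, a basal keratin, and TP63, a basal transcription factor, among 12 of 12 listed genes with counts. Their counts were uneven: KRT5 had 306533 counts summed over NS1 and 328716 over NS2. The basal keratin KRT14 had only 115 and 51, and the luminal keratin KRT8 248 and 232. By contrast, KRT17 had 79460 and 57259, and the luminal keratin KRT18 160283 and 149135. Whether reads of KRT14 and KRT8 were lost in counting was not tested, so their low counts need not be low expression. Of 12 leukocyte markers, 6 had no count in any control library, the T and B cell genes CD3E, CD3D and MS4A1 among them, and so did 3 of 13 fibroblast markers, the collagens COL1A2 and COL3A1 among them, while others such as FBLN1, FAP and DCN were counted. EP300 measured 171, 177 and 167 CPM in NS1 and 165, 180 and 177 in NS2 (CPM, the library-scaled count with TMM factors), a log2 difference of 0.02 ± 0.03 (SE, n = 3 each) that did not pass the test (edgeR adjusted p = 0.7327). Its paralogue CREBBP did not pass either (0.06, adjusted p = 0.1985). HRAS was counted at only 1.93, 3.07 and 3.62 CPM in NS1 and 4.90, 2.68 and 4.79 in NS2, with overlapping libraries and no call (adjusted p = 0.6583); whether reads of the transgene are in this row was not tested.

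The row that differed most was a microRNA gene. MIR30A (NR_029504; hg38, chr6:71403551-71403621, minus strand) is the precursor gene of miR-30a, which belongs to a family of microRNAs with a common seed. In GENCODE 29 its annotation lies inside introns of the long noncoding RNA genes LINC00472 and AL136164.2 and overlaps no exon of either. The hairpin is shown because it is the feature that read in NS2 and not in NS1, and capitals mark its 2 mature arms (RefSeq, GRCh38.p14):
miR-30a hairpin: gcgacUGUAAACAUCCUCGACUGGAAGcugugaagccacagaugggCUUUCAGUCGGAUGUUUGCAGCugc
The mature arms follow, with 2 relatives for comparison and the seed, bases 2 to 8, in capitals. The 5p arms of miR-30a, miR-30c and miR-30e have the same seed.
hsa-miR-30a-5p: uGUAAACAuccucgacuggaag
hsa-miR-30c-5p: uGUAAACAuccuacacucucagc
hsa-miR-30e-5p: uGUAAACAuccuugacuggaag
hsa-miR-30a-3p: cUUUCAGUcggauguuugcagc

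MIR30A had 0 counts in each of the 3 NS1 libraries and 3176, 2954 and 3174 in NS2. No NS1 library held a read of it, and every NS2 library held at least 2954. The NS2 level was 95.6 ± 5.97 CPM (SD, n = 3), at least 1166-fold higher than a floor of 3 counts per NS1 library (edgeR adjusted p = 7.896e-19), a bound that covers counting error only. The EP300 shRNA lines also differed, with 0, 1 and 1 counts in EP300 KD1 and 1321, 1092 and 957 in EP300 KD2. Summed, EP300 KD2 exceeded EP300 KD1 by a ratio of 1528 (95% counting interval 422.6 to 12620), and the NS2 level was 3.153 times that of EP300 KD2. Among all 29094 rows, MIR30A was the only one with no count in NS1 and over 3 in every NS2 library. The libraries were made from messenger RNA, and these counts are of reads assigned to the precursor row. They say nothing of the level of mature miR-30a, and which transcripts the reads belong to was not tested.

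No tested gene beside MIR30A went from no reads to reads. MIR30C2, the other microRNA gene of the cluster, had 3 to 8 counts per NS1 library and 1 to 3 per NS2 library, too few to be tested. The counted LINC00472 row (NR_026807) is a shorter transcript that does not reach MIR30A, and it had 54, 46 and 69 counts in NS1 and 59, 50 and 45 in NS2, with a log2 difference of 0.07 (adjusted p = 0.7978). In the EP300 shRNA lines its counts, not scaled to library depth, were 23, 35 and 26 in EP300 KD1 and 48, 49 and 33 in EP300 KD2. OGFRL1, the next coding gene on one side, was 0.35 higher on the log2 scale in NS2 (adjusted p = 4.522e-06). It was also higher in EP300 KD2, with 783, 895 and 911 counts in EP300 KD1 and 1330, 1093 and 1020 in EP300 KD2 (log2 difference 0.27, adjusted p = 2.106e-05). SMAP1 (0.10, adjusted p = 0.06823) and FAM135A (0.02, adjusted p = 0.8019), farther along the chromosome, did not pass. Of 1812 microRNA rows, 54 were tested and MIR30A alone was called. Sequence of the miR-30a precursor is also used, as background, to carry the hairpin in a class of lentiviral shRNA vectors; the labels name no vector, and where these reads came from was not tested.

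**Figure D1:**
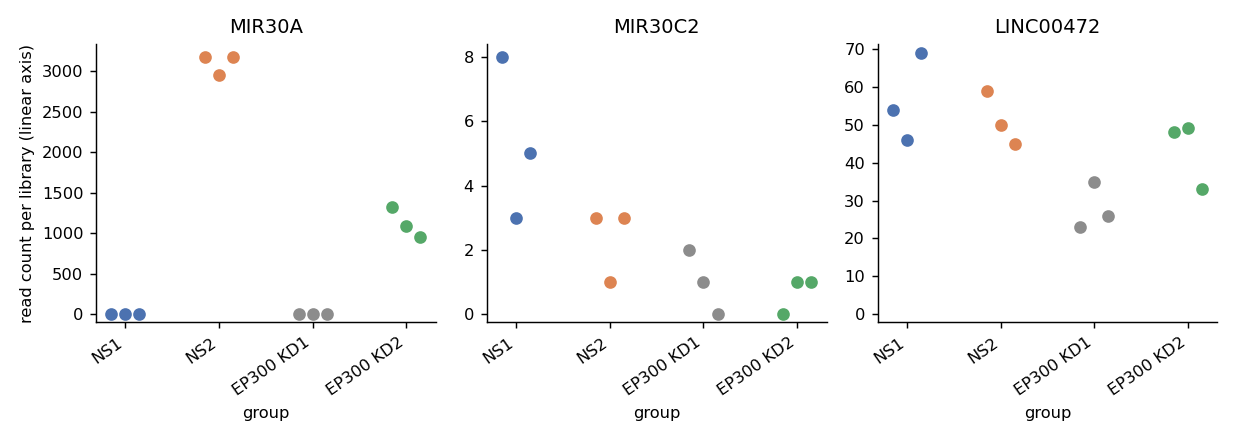
Read counts of MIR30A, of the neighbouring microRNA gene MIR30C2 and of the neighbouring noncoding transcript LINC00472, 1 point per library on linear axes that differ between panels, for the 4 groups of 3 libraries. MIR30A lies at 0 or 1 in NS1 and EP300 KD1 and at 957 to 3176 in NS2 and EP300 KD2, while LINC00472 overlaps between NS1 and NS2. LINC00472 lies at 23 to 35 in EP300 KD1 and at 33 to 49 in EP300 KD2.

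Across all genes, differences were frequent and mostly small. Of 13424 genes tested, 3697 (27.5%) passed edgeR's quasi-likelihood test at an adjusted p below 0.05, called below: 1904 were higher in NS2 (14.2%) and 1793 lower (13.4%). The median size of the log2 difference was 0.10 over all genes and 0.19 over those called. Larger differences leaned one way: 174 genes (1.3%) were called at 2-fold or more, of which 14 were higher (0.104%) and 160 lower in NS2 (1.19%). With a mean of at least 1 CPM required in the controls, 83 remained, 11 higher and 72 lower. Libraries of the control lines did not overlap for 5416 genes (40.3%), 3579 of them called. Libraries of a line lay close together, with a common biological coefficient of variation of 0.03, so small differences passed. The division into higher and lower calls moved with the scaling: upper-quartile factors gave 1587 higher and 2184 lower, and library totals alone 1606 and 2157.

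**Figure D2:**
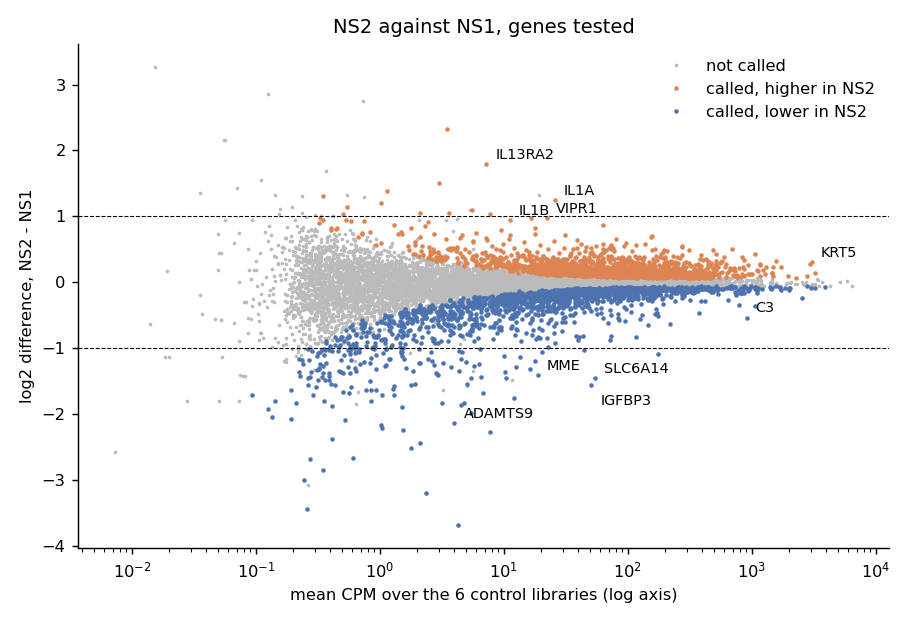
Log2 difference between NS2 and NS1 against the mean level in the 6 control libraries (CPM, log axis), 1 point per gene tested except MIR30A, with dashed lines at 2-fold. Called genes spread further below 0 than above it, with 160 lower and 14 higher by 2-fold or more, MIR30A included.

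The coding genes with the largest gains in NS2 included cytokine genes and a cytokine receptor. IL13RA2, the decoy receptor for interleukin 13, measured 3.15, 3.75 and 2.89 CPM in NS1 and 10.9, 10.6 and 12.1 in NS2, 3.43-fold higher (log2 difference 1.79 ± 0.09, SE, adjusted p = 9.401e-11). IL1A, the gene of interleukin 1 alpha (chr2:112773925-112784493), measured 16.9, 14.4 and 14.5 CPM in NS1 and 36.5, 35.5 and 36.6 in NS2, 2.37-fold higher (adjusted p = 4.961e-12). IL1B, interleukin 1 beta, lies near it on chromosome 2 and went from 7.53, 8.15 and 7.35 to 13.5, 14.8 and 15.8 CPM (0.94 ± 0.08, adjusted p = 2.941e-08). In these genes every NS2 library lay above every NS1 library. MEFV, the gene of the inflammasome protein pyrin, rose from 1.57 ± 0.109 to 4.47 ± 0.32 CPM (SD, n = 3), and TNIP3, an inhibitor of NF-kB signalling, from 0.922 ± 0.116 to 1.69 ± 0.101.

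VIPR1, a receptor for vasoactive intestinal peptide, measured 15.9, 15.2 and 14.5 CPM in NS1 and 28.4, 31.6 and 29.4 in NS2 (log2 difference 0.98, adjusted p = 2.921e-08). GFPT2, an enzyme of hexosamine synthesis, was 1.09 higher on the log2 scale, SGPP2, a sphingosine-1-phosphate phosphatase, 1.05, PID1, an adaptor in insulin signalling, 0.97, and PDE2A, a cyclic nucleotide phosphodiesterase, 0.91. The adhesion gene FLRT1 (1.05) and the matrix gene ECM2 (1.03) were also called, as was the activin subunit gene INHBE, at 0.627 ± 0.227 CPM in NS1 and 1.44 ± 0.129 in NS2. ENTREP3 had a log2 difference of 1.38 (adjusted p = 0.02765) at 0.379 to 0.817 CPM in NS1 and 1.47 to 1.90 in NS2, and its call was lost with DESeq2 and without NS1 replicate 1, NS1 replicate 2, NS2 replicate 1 or NS2 replicate 3.

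Of the genes with the largest losses in NS2, 3 are given in full. ADAMTS9, a secreted metalloprotease that cleaves proteoglycans, measured 5.69, 6.79 and 7.08 CPM in NS1 and 1.45, 1.38 and 1.60 in NS2 (log2 difference -2.14 ± 0.14, adjusted p = 1.585e-09). IGFBP3, which binds insulin-like growth factors outside the cell (chr7:45912245-45921272), measured 71.7, 73.7 and 82.6 CPM in NS1 and 26.0, 24.2 and 27.2 in NS2, 2.95-fold lower (-1.56 ± 0.07, adjusted p = 2.631e-11). SLC6A14, an amino acid transporter of the apical membrane, measured 80.7, 78.3 and 79.7 CPM in NS1 and 30.6, 26.0 and 30.1 in NS2 (-1.46 ± 0.05, adjusted p = 3.862e-13). The highest NS2 library of each lay far below the lowest NS1 library.

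CFI, a serine protease that inactivates complement, went from 8.65 ± 0.671 to 2.20 ± 0.096 CPM, and the matrix metalloprotease MMP7 from 7.40 ± 0.423 to 2.07 ± 0.222. The glutamate transporter SLC1A1 had a log2 difference of -1.68, the glutamate receptor subunit GRIK2 -2.25, the microtubule protein MAP2 -1.87 and protein S, PROS1, an anticoagulant cofactor, -1.57. TNFRSF19, a receptor of the TNF family, differed by -1.54, the tetraspanin TSPAN8 by -2.21, the transcription factor SOX6 by -2.16, the BMP and Wnt antagonist SOSTDC1 by -1.71 and the ubiquitin ligase PELI2 by -1.89. UCA1, a long noncoding RNA, went from 4.94 ± 0.283 to 1.38 ± 0.305 CPM. All 30 genes with the largest log2 differences were chosen among those with separated libraries, so that separation is no result about them.

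**Figure D3:**
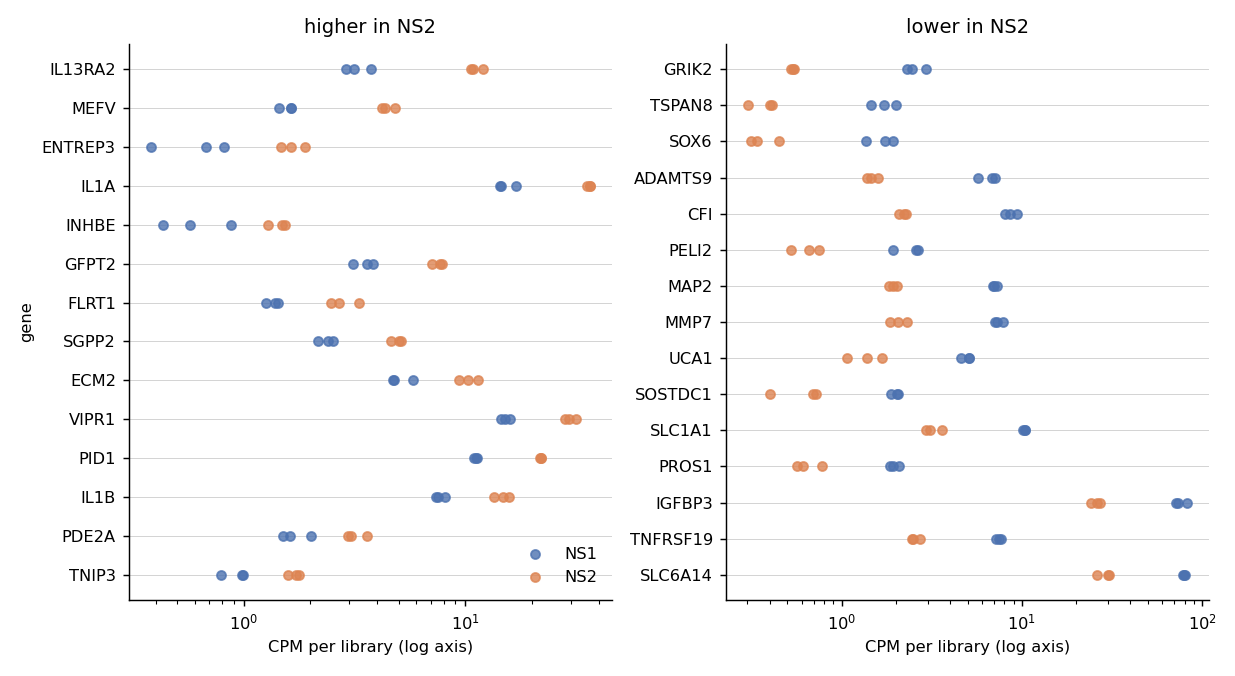
CPM per library (log axis) of the 14 genes besides MIR30A with the largest log2 gain in NS2 (left) and the 15 with the largest loss (right), 3 points per line and gene. NS1 and NS2 points do not overlap in any row, as the choice of these genes required; IGFBP3 and SLC6A14 lie at 71.7 to 82.6 CPM in NS1 and 24.2 to 30.6 in NS2.

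Taken by CPM, which is not corrected for gene length, the largest gains included KRT5, from 2730 ± 39.5 to 3374 ± 24.9 CPM (log2 difference 0.31). The calcium-binding S100A14, S100A2 and S100A6 were 0.32, 0.13 and 0.23 higher on the log2 scale. AREG, a ligand of the EGF receptor, rose from 913 ± 6.33 to 1226 ± 6.87 CPM. The largest losses in CPM were in the chaperone HSPA8 (2751 ± 88.3 to 2327 ± 54.8), complement C3 (1079 ± 18.2 to 742 ± 32.6) and the matrix protein THBS1 (1194 ± 20 to 925 ± 20.1). NPM1, a nucleolar protein, KRT15, a basal keratin, and ANXA2, a membrane-binding annexin, differed by -0.09, -0.35 and -0.07, and the call of ANXA2 was lost without NS2 replicate 1 and with no low-count filter.

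Among 32 pathway lists, the unfolded protein and ATF4 response had the highest share of members called higher. This response raises chaperones when the endoplasmic reticulum is loaded and, through the transcription factor ATF4, genes of amino acid synthesis and import. Of 30 members tested, 22 were higher in NS2 and 0 lower, against 14.2% and 13.4% of all genes, with a median log2 difference of 0.21 against -0.00 for all genes. In a test against a minimum fold of 1.2, 7 members were higher and 0 lower. That test called 139 of all 13424 genes higher and 308 lower. ASNS, asparagine synthetase, measured 128, 112 and 111 CPM in NS1 and 174, 199 and 192 in NS2 (log2 difference 0.69 ± 0.05, adjusted p = 5.989e-09). HSPA5, the main chaperone of the endoplasmic reticulum, went from 790, 763 and 765 to 952, 997 and 970 CPM (0.33, adjusted p = 4.615e-09). HERPUD1, a factor of protein degradation at that membrane, and PSAT1, an enzyme of serine synthesis, each rose by 0.48.

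The promoters of 3 of these genes are shown for the letters that such factors are known to bind, each 250 bases before to 50 after the RefSeq start (GRCh38.p14), with the match in capitals. In ASNS it is an ATF4-type element, TGATGNAA, 68 to 61 bases before the start; in HERPUD1 the same element on the other strand, 176 to 169 bases before it; in HSPA5 the endoplasmic reticulum stress element, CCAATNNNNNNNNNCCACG, 66 to 48 bases before it.
ASNS, chr7:97872359-97872658, minus strand: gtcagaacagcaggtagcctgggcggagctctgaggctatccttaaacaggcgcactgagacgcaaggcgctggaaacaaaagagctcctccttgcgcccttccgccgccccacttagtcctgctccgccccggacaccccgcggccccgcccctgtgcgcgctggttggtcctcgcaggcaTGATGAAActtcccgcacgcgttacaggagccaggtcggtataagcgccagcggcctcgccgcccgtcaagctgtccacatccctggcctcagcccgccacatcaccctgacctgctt
HERPUD1, chr16:56931892-56932191, plus strand: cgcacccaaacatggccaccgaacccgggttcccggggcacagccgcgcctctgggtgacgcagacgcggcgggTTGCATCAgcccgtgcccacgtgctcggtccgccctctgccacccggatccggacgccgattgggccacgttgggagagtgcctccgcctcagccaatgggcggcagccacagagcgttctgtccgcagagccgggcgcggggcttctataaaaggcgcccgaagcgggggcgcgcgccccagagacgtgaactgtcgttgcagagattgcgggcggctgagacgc
HSPA5, chr9:125241294-125241593, minus strand: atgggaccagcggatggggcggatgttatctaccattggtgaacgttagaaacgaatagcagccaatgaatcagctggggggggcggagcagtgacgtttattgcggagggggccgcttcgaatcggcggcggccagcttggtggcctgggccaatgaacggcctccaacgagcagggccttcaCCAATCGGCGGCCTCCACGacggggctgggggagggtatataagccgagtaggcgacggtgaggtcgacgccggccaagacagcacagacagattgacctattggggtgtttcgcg
Searched on both strands, TGATGNAA was in 6 of the 26 list members with a promoter in the table, against 3.67% of all 27305 promoters and 1.76% of those of the genes tested. The stress element was in 4 of 26, against 0.0806% and 0.126%. No promoter of the list held both motifs. The list was made of genes known for this response, so these shares cannot speak to the calls in NS2. A match is a description of the letters in this window, and its relation to the calls was not tested.

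NRF2 targets, the genes of glutathione synthesis and detoxification, were higher in 18 and lower in 1 of 29 members tested (median 0.15). In the test against a minimum fold of 1.2, 2 were higher and 0 lower. SLC7A11, the cystine importer, which is also on the ATF4 list, rose from 199 ± 4.85 to 262 ± 7.17 CPM and the quinone reductase NQO1 from 459 ± 4.32 to 548 ± 20. The aldo-keto reductases AKR1C1 and AKR1B1 rose by 0.40 and 0.29 on the log2 scale; AKR1C1 has near-identical relatives whose reads the counting can split.

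NF-kB targets and cytokines were higher in 17 and lower in 5 of 30 members tested (median 0.19). Besides IL1A and IL1B, SOD2, the mitochondrial superoxide dismutase, measured 177, 174 and 170 CPM in NS1 and 236, 227 and 259 in NS2 (log2 difference 0.47, adjusted p = 1.973e-07). C3 went the other way, from 1078, 1098 and 1062 to 727, 720 and 780 CPM (-0.54, adjusted p = 2.872e-10). The list was not uniform, since called members lay on both sides. Interferon-stimulated genes had more calls below than above, with 3 higher and 10 lower of 36 (median -0.06). Without NS1 replicate 3 or NS2 replicate 2, 1 was higher, and without NS1 replicate 2 the median was -0.03. IFI44L went from 19.0 ± 0.272 to 11.1 ± 0.589 CPM, its neighbour IFI44 from 4.65 ± 0.303 to 2.52 ± 0.302 and OAS1, an RNA sensor, from 24.3 ± 0.421 to 17.4 ± 0.132, and IFITM1, which restricts viral entry, had a log2 difference of -0.34.

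Of the list of EGF receptor ligands and receptors, 7 members were higher in NS2, 3 lower and 6 not called of 16 (median 0.11). The ligands bind a receptor that signals through RAS and MAP kinases, the pathway that the HRAS transgene also feeds. EREG, epiregulin, measured 13.3, 12.6 and 12.8 CPM in NS1 and 24.9, 22.3 and 21.3 in NS2 (log2 difference 0.82, adjusted p = 4.485e-09). HBEGF went from 55.6, 48.4 and 47.9 to 76.0, 75.3 and 75.6 CPM, and TGFA from 56.0 ± 1.24 to 78.6 ± 1.99. In the list of MAP kinase output and feedback genes, 7 were higher and 1 lower of 18 (median 0.08). DUSP6, a phosphatase that MAP kinase signalling induces, rose from 337 ± 2.85 to 448 ± 6.24 CPM, the transcription factor ETV5 by 0.28 and the phosphatase DUSP1 by 0.22 on the log2 scale, whereas the ephrin receptor EPHA4 had a log2 difference of -1.41.

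Luminal and secretory genes mark the inner mammary layer and its secretions. Of 25 members tested, 16 were lower in NS2, 5 higher and 4 not called, with a median log2 difference of -0.38. CEACAM1, a cell adhesion molecule, measured 93.3, 96.4 and 93.4 CPM in NS1 and 52.6, 54.8 and 52.9 in NS2 (-0.82 ± 0.03, adjusted p = 1.781e-12). The mucin MUC1 went from 207 ± 5.36 to 145 ± 2.84 CPM, the secreted protease inhibitor SLPI from 122 ± 2.89 to 89.0 ± 0.793 and AGR2, a disulfide isomerase of secretory cells, from 66.1 ± 1.68 to 47.6 ± 2.07. The summed level of the list overlapped between the lines, 6887 to 7137 CPM in NS1 and 6878 to 6934 in NS2. The most abundant member alone had a mean of 3496 CPM over the controls, so the sum says little of the other members.

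Basal mammary and hemidesmosome genes divided evenly, with 9 higher and 9 lower of 24 (median 0.02). KRT5 and ITGA6, an integrin subunit of hemidesmosomes, rose by 0.31 and 0.28, while KRT15 had a log2 difference of -0.35 and MME, the surface peptidase CD10, went from 28.3, 27.0 and 26.9 to 10.3, 10.2 and 10.4 CPM (-1.42 ± 0.05, adjusted p = 1.781e-12). Squamous differentiation genes were lower in 12 and higher in 4 of 35 (median -0.12, but -0.07 without NS1 replicate 1, -0.02 without NS2 replicate 1 and -0.20 without NS2 replicate 3). The kallikreins KLK6 and KLK5, proteases of the shedding epidermis, had log2 differences of -1.07 and -0.93 and the keratin KRT10 -0.53, while KRT80 rose by 0.37. Among matrix proteases, the plasminogen system and their inhibitors, 14 were lower and 6 higher of 26 (median -0.17, and -0.31 without NS2 replicate 2), and the serpins SERPINB13 and SERPINB3 had log2 differences of -1.29 and -0.82.

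Cell cycle genes moved little in size. Of 44 genes of G2 and mitosis, 27 were higher in NS2 and 0 lower (median 0.10), and 17 were higher without NS2 replicate 2. With upper-quartile factors or library totals 19 were higher, and in the test against a minimum fold of 1.2 the number was 0. CDC25B, a phosphatase that activates mitotic kinases, rose by 0.27, the kinesin CENPE by 0.25, the spindle factor TPX2 by 0.20 and the topoisomerase TOP2A by 0.20 on the log2 scale. S phase and DNA replication had 40 genes tested, of which 2 were higher and 10 lower (median -0.05), and 6 were lower without NS1 replicate 3. POLA1, a polymerase subunit, rose by 0.27, and E2F2, a transcription factor of S phase, RRM2, a subunit of ribonucleotide reductase, and MCM3, of the replicative helicase, had log2 differences of -0.34, -0.11 and -0.12. Cytosolic ribosomal protein genes were lower in 28 and higher in 0 of 66, with a median of -0.07, and 40 were lower with upper-quartile factors or library totals. With a control library left out, the number lower ran from 19 (without NS1 replicate 3) to 29 (without NS2 replicate 2). In a test against a minimum fold of 1.2 it was 0. The lowest log2 difference of a called member was -0.17, in RPL15.

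Glucocorticoid targets were higher in 13 and lower in 5 of 23 (median 0.10), the culture medium of all lines holding hydrocortisone. TSC22D3, known as GILZ, rose by 0.31 and ANGPTL4 by 0.39, while the glutamine synthetase GLUL went from 267 ± 4.78 to 173 ± 0.353 CPM and the kinase SGK1 from 42.5 ± 1.04 to 30.2 ± 0.797. The machinery of RNA interference, which a hairpin depends on, had 1 higher and 4 lower of 16 (2 lower without NS2 replicate 3, 6 lower with upper-quartile factors or library totals): AGO3 rose by 0.37, AGO4 and MOV10 differed by -0.21 and -0.14. Of 8 fibroblast markers tested, 0 were higher and 3 lower (2 higher and 3 lower without NS1 replicate 1), with a summed level of 94.9 to 97.3 CPM in NS1 and 71.9 to 77.7 in NS2. Of 4 endothelial markers tested, PECAM1 rose by 0.40 and KDR, at 0.515 ± 0.0864 and 0.216 ± 0.0361 CPM, was lower. Of 3 leukocyte markers tested, CD68 rose by 0.50, and CD14, at 46.2 ± 5.11 and 48.6 ± 2.57 CPM, was not called. The libraries are of an epithelial cell line. No count in any control library was found for 3 of 13 fibroblast, 6 of 12 leukocyte and 2 of 8 endothelial markers. In bulk RNA, fewer cells that express a gene and less RNA per cell cannot be told apart. The part of these markers in the lists above was not tested.

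**Figure D4:**
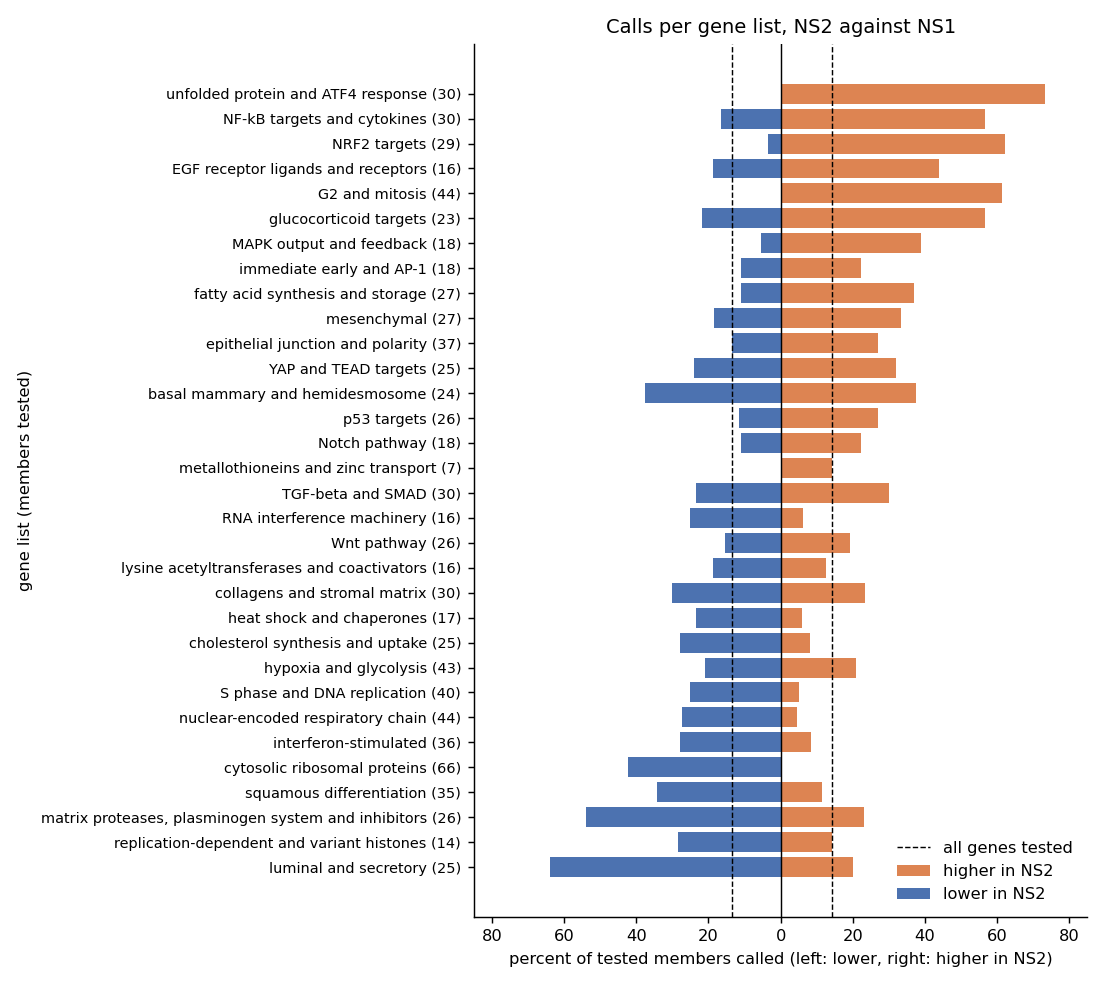
Percent of the tested members of each pathway list that were called lower (left) or higher (right) in NS2, ordered by the list's median log2 difference, with the number tested in parentheses and dashed lines at the shares for all genes, 13.4% and 14.2%. The unfolded protein and ATF4 list, with 22 of 30 higher, and the luminal list, with 16 of 25 lower, lie at the ends of the order.

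The same genes were then read in the EP300 shRNA lines, EP300 KD2 against EP300 KD1. These share no library with the controls but differ in EP300 level (95.8 ± 3.87 and 107 ± 0.884 CPM, n = 3 each). The labels do not say which control belongs to which EP300 hairpin, so lines were matched by number alone. Same and opposite direction hold for that matching only, and the other matching would swap them. In that comparison 8010 genes were called (59.7%), 3296 higher (24.6%) and 4714 lower in EP300 KD2 (35.1%). Of 2650 genes called in both, 1344 had the same direction and 1306 the opposite, and the correlation of the differences across genes, which are not independent, was weak (Pearson's r 0.14, Spearman's rho 0.04). Of the 160 genes called at least 2-fold lower in NS2, 61 were called lower in EP300 KD2, 14 higher and 85 not. Of the 14 higher, 1 was called higher, MIR30A, 9 lower and 4 not. Genes called at 2-fold or more with the same direction in both comparisons numbered 38, which is 21.8% of the control list and 5.05% of the shRNA list. Of all genes tested, 5.6% were called at 2-fold or more in the shRNA lines, in either direction.

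Of the losses, ADAMTS9 was 1.58 lower on the log2 scale in EP300 KD2 (9.45 and 3.15 CPM in EP300 KD1 and EP300 KD2), SLC1A1 differed by -1.23, MME by -1.86 and SERPINB13 by -1.09. UCA1 differed by 1.19 and so went the other way. Of the gains, IL1A measured 76.0 CPM in EP300 KD1 and 31.6 in EP300 KD2 (log2 difference -1.26) and IL1B 74.6 and 25.2 (-1.57), opposite to the controls, while VIPR1 was higher in EP300 KD2 as in NS2 (1.59). The test of the difference between both comparisons passed for 6818 genes (50.8%), IL1A, IL1B and UCA1 among them (adjusted p = 4.193e-15, 1.077e-13 and 3.21e-09). Among lists, NF-kB members were higher in 0 and lower in 26 of 30 in EP300 KD2, S phase genes higher in 38 of 40, and luminal genes higher in 8 and lower in 10 of 25.

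**Figure D5:**
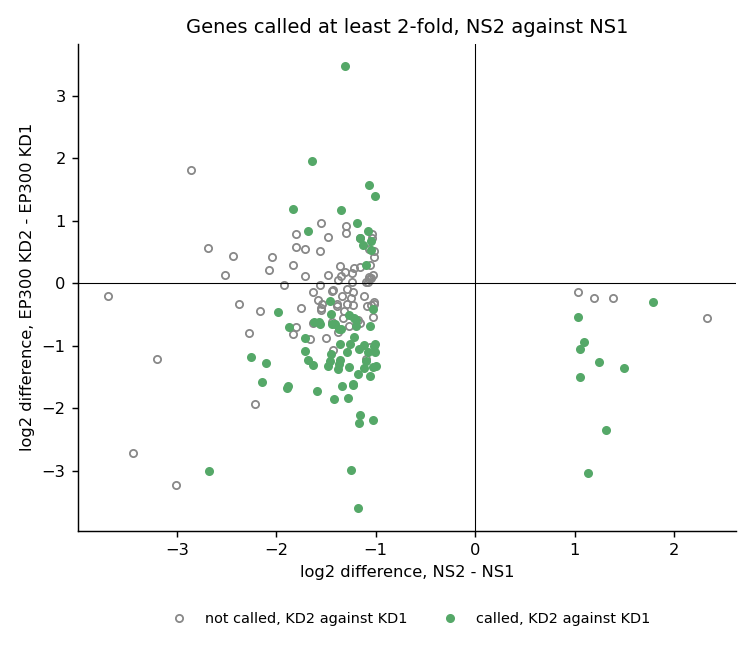
Log2 difference EP300 KD2 minus EP300 KD1 against NS2 minus NS1 for genes called at least 2-fold in the control comparison, MIR30A left out for scale; filled points were also called in the shRNA lines. Of the 160 lower genes at the left 61 were called lower in EP300 KD2 and 14 higher, and of the gains at the right 9 were called lower.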

How the data were processed

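Poly(A) RNA of 12 MCF10AT libraries was sequenced, 3 each of NS1, NS2, EP300 KD1 and EP300 KD2; groups follow the sample titles. Alignment was to hg38 with HISAT2 2.1.0 and counting with featureCounts, per the submitters' processing notes; the annotation and the strand and multi-mapping options were not stated in these sources. What the authors deposited are raw counts, 1 row per RefSeq accession, and a row was taken as a gene. Symbols and coordinates came from RefSeq (28134 rows) and GENCODE 29 (486 more). Genes passing edgeR 4.0.16 filterByExpr were fitted with its quasi-likelihood model over all 12 libraries, 1 coefficient per group, TMM scaling and Benjamini-Hochberg adjustment over all genes tested (threshold 0.05). Standard errors were derived from the test statistic. The procedure was tested on simulated data.

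Members and gene lists were chosen with earlier results of these data known. Always named were EP300, CREBBP and HRAS. Among called single-row genes of at least 1 CPM with separated libraries, 15 per direction by log2 difference and 6 by CPM difference were named, pseudogenes and unnamed loci passed over, and up to 4 members of the smallest p per list. CLEC2B, CUTA and SOST were picked outside it with their values in view. So were the neighbours of MIR30A and the markers TP63, KRT14, KRT17, KRT8, KRT18, CD3E, CD3D, MS4A1, COL1A2 and COL3A1. Alternatives covered scaling, filters, DESeq2 1.42.0, limma-voom 3.58.1, the 6 control libraries alone, a replicate block, single-row symbols, a minimum fold and each library left out. Sequences came from RefSeq tables (GRCh38.p14). Some genes that the rule names are not reported here.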

Additional observations from a re-analysis of the deposited data

Results flagged for a closer look

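Among the 30 genes with the largest log2 differences between the control lines, 28 have a fitted difference in both comparisons, and for 25 of them the difference NS2 minus NS1 differed from EP300 KD2 minus EP300 KD1 by edgeR's test of that contrast (adjusted p below 0.05), which 50.8% of all genes tested also passed. These genes were chosen for their NS2 minus NS1 difference, one side of this contrast, so the count is a description and supports nothing. Values are the second difference minus the first, on the log2 scale. The lines were matched by number, a matching that the labels do not give and on which the values depend. Among genes higher in NS2 the value was -2.09 for IL13RA2, -2.86 for MEFV, -1.62 for ENTREP3, -2.51 for IL1A, -2.04 for GFPT2, -2.10 for FLRT1, -2.54 for SGPP2, -1.16 for ECM2, -1.98 for PID1, -2.51 for IL1B, -1.54 for PDE2A and -1.96 for TNIP3. VIPR1, at 0.61, was the exception, with a larger gain in EP300 KD2. Of these 13 genes, 10 were called lower in EP300 KD2.

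Among genes lower in NS2 the value was 1.72 for SOX6, 0.56 for ADAMTS9, 1.52 for CFI, 1.18 for MAP2, 1.03 for MMP7, 3.03 for UCA1, 1.83 for SOSTDC1, 0.45 for SLC1A1, 0.95 for PROS1, 0.91 for IGFBP3, 1.21 for TNFRSF19 and 1.17 for SLC6A14. Of these 12 genes, 7 were called lower in EP300 KD2 as in NS2 and 1 higher. SOX6 and SOSTDC1 were at 0.0995 and 0.102 CPM in EP300 KD1 and at 0.0718 and 0.112 in EP300 KD2, far under their levels in NS1.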

How the results depend on the processing

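No gene called both in the result above and under an alternative changed its direction. The count of 3697 called genes was 2886 to 3373 with a control library left out (1486 to 1744 higher, 1399 to 1629 lower, 159 to 184 at 2-fold or more), 3037 with DESeq2, 3721 with limma-voom and 3658 with the 6 control libraries alone. A test against a minimum fold of 1.2 in place of 0 called 447 genes, 139 higher and 308 lower. Requiring a mean of 1 CPM left 83 genes at 2-fold or more in place of 174, and no low-count filter gave 249. Of 166 named genes tested, EP300 alone turned sign, while not called: with a library left out its log2 difference ran from -0.00759 (without NS2 replicate 2) to 0.0582 (without NS2 replicate 1), and it was -0.00371 without NS1 replicate 3. Of 163 called named genes, 70 lost the call under some alternative, all of them under the minimum fold. The medians of the p53, Notch, metallothionein and TGF-beta lists, all within 0.02 of 0, changed sign with the scaling. Of the 44 respiratory chain genes, 12 were called lower, and 4, 5 or 6 without NS2 replicate 2, NS1 replicate 3 or NS1 replicate 1. Deviations of same-numbered libraries from their group means had correlations of 0.065, 0.057 and -0.311. Those of libraries with different numbers ran from -0.30 to 0.26. Deviations from a mean of 3 libraries constrain one another, so these values cannot show whether libraries were paired. The fit with a replicate block called 3764 genes, 1944 higher and 1820 lower. Genes under 1 CPM rest on few counts and give the least certain folds. Counts of 1 to 3 members of the S phase, NRF2, interferon and RNA interference lists moved by 1 or 2 members with a library left out.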

Other observations

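Other gene groups held single large differences without a common direction. CCN2 and CCN1, matricellular genes that YAP and TEAD induce, went from 18.4 ± 0.235 to 8.41 ± 0.859 and from 14.0 ± 0.935 to 9.62 ± 0.958 CPM, while the list as a whole had 8 higher and 6 lower of 25. In the same list PTPN14, an inhibitor of YAP, rose by 0.19. COL12A1, a fibril-associated collagen, went from 150 ± 8.34 to 83.4 ± 1.62 CPM and the basement membrane collagen COL4A1 rose by 0.47 on the log2 scale (7 higher and 9 lower of 30 collagen and stromal matrix genes). The cholesterol exporters ABCG1 and ABCA1 had log2 differences of -0.83 and -0.68 (2 higher and 7 lower of 25, and 4 lower without NS1 replicate 3 or without NS2 replicate 2). INHBA, a subunit of activin, rose by 0.65, and the Wnt antagonists DKK1 and SFRP1 differed by -0.65 and 0.49.

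Genes were also read by their place on the chromosomes. On chromosome 19, 5.75% of 887 genes tested were higher in NS2 and 15.3% lower, against 14.2% and 13.4% of all genes. Of 12602 overlapping runs of 25 neighbouring tested genes, 17 had a median log2 difference beyond 0.2 in size, 12 on chromosome 12 and 5 on chromosome 6. The lowest median, -0.33, was in the run from 8180209 to 12099695 on chromosome 12 (hg38), where 11 genes were lower and 0 higher. The gene at that median was not called (adjusted p = 0.09283), and the gene with the highest CPM in the run had a log2 difference of -0.10. Several genes of the run lay under 1 CPM. Among these is the lectin-like receptor gene CLEC2B, at 0.654 ± 0.0779 CPM in NS1 and 0.174 ± 0.0458 in NS2. The median of the same run in EP300 KD2 against EP300 KD1 was -0.04.

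Genes were further divided by a match to the miR-30a-5p seed, TGTTTAC, after the stop codon, a division made after MIR30A was seen. Of the GENCODE 29 transcripts of a row, the one with the longest stretch after the stop codon was searched. Of 1750 genes with a match 21.5% were higher in NS2 and 12.8% lower, and of 9708 without one 14.5% and 14.9%, with medians of 0.03 and -0.01. In EP300 KD2 against EP300 KD1, where MIR30A also differed, the medians were -0.07 with a match and -0.04 without one. The stretches searched had median lengths of 2660 and 765 bases, and the part of that length in the shares was not tested. For miR-30a-3p, ACTGAAA, 20.8% of 2077 genes with a match were higher in NS2 and 13.8% lower. Of 9381 genes without one the shares were 14.4% and 14.8%. The median lengths searched were 2655 and 736 bases, again with the part of length not tested.

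Of the 174 genes called at 2-fold or more, 14 had overlapping libraries. CUTA, 1 of them, measured 0.379, 0.891 and 22.6 CPM in NS1 and 0.331 to 0.830 in NS2. SOST, an antagonist of Wnt signalling, was the only row with no count in NS2 and over 3 in every NS1 library.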
